A study of Mus musculus with 8 samples.

Results

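Prss35 and 8 other genes of extracellular proteolysis were followed through RNA sequencing of mouse knee joints. They were the trypsin-fold genes Prss35 and Prss23, the HtrA proteases Htra1 and Htra3, the plasminogen activator genes Plau and Plat with the receptor gene Plaur, and the serpins Serpine2 and Serpinf1. The set was chosen by name from the table of normalised read counts, with the difference between its 2 groups of libraries already known, above all that of Prss35. That difference is therefore given for the 9 genes as a description, with its error and without a test. All 9 names matched 1 row each among the 20681 genes of the table, and all 9 were among the 14949 genes abundant enough to test, that is, reaching 10 normalised counts in 4 or more libraries.

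The study compared knee joints of Acan-Cre;Loxl2 fl/fl mice in 4 libraries labelled control and 4 labelled knockout. Loxl2 encodes a collagen-crosslinking lysyl oxidase, and the Cre is placed under the aggrecan gene, which cartilage cells express. The series text gives this genotype for both groups and calls the control animals vehicle-treated, while the library names call them wild type for LOXL2 and carry the letters DMM in both groups. What the knockout animals received in place of vehicle, the ages and whether each library came from a different mouse are not stated in the labels, so the p-values below measure the spread between these samples.

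The libraries held 13991000 to 17411617 reads assigned to genes. Loxl2 had normalised counts of 282, 349, 1135 and 311 in the 4 control libraries, listed here and below from replicate 1 to replicate 4, and of 893, 1468, 960 and 1518 in the libraries labelled knockout, which is against the direction of the label (exact two-sided permutation p = 0.0857). Control replicate 3 lay among the libraries labelled knockout, and without it the exact permutation p was 0.0286, the smallest that either number of libraries allows. The fit across all genes described below called the gene (log2 difference 1.44, limma adjusted p = 0.0294), but not when any 1 of control replicates 1, 2 and 4 or knockout replicates 2 and 4 was left out (adjusted p of 0.0666 to 0.0849). Nor did edgeR, DESeq2, the fit with a replicate block or that with a muscle covariate call it. A knee joint sample holds several tissues. The summed counts of 14 skeletal muscle markers were 2022605 to 2155495 in the control libraries and 1002821 to 1420829 in those labelled knockout. Those of 12 fibroblast markers were 70935.0 to 196124 and 209552 to 365707, and those of 10 macrophage markers 1463 to 3340 and 5168 to 6955. Each of these 3 lists was separate between the groups (exact permutation p = 0.0286, adjusted p = 0.0952 over 10 marker lists). Chondrocyte markers were present in every library, with sums of 4331 to 15031, although Matn3 was at 0 in at least 1 library. The part of tissue composition in the differences below was not tested, and in a bulk sample a larger number of cells of a type and more RNA per cell cannot be told apart.

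Secreted serine proteases cut matrix and blood proteins outside the cell. Urokinase and tissue plasminogen activator turn plasminogen into plasmin, urokinase can do so while held at the cell surface by its receptor, and serpins trap their target proteases by a suicide mechanism. HtrA1 and HtrA3 are secreted proteases that degrade proteoglycans and other matrix proteins, and HtrA1 is well known from osteoarthritic cartilage and synovium. Not all members act as their families' names say. Prss35 is classed as an inactive protease, and the Serpinf1 product, pigment epithelium-derived factor, is a serpin that does not inhibit proteases.

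The starts of the genes were compared in RefSeq's windows on build GRCm38.p6, the same genome as the mm10 of the authors' alignment. A window was available for 7 of the 9 genes, and the 250 bases before each start were searched on both strands for 6 short motifs. The motifs were AP-1 (TGANTCA), the GC box (GGGCGG), the CCAAT box (CCAAT), the TATA box (TATAAA), TEAD (GGAATG) and RUNX (TGTGGT). They were present in 6.75%, 32.7%, 33.8%, 12.4%, 12.6% and 14.0% of all 32851 windows of that length. The letters of 3 windows are shown because Prss35 and Prss23 are the related pair of the set and Plaur held an AP-1 match. Motif matches are in capitals, none of the bases shown lies in an annotated exon of its gene, and the windows lie at chr9:86743383-86743632 (plus strand), chr7:89527188-89527437 (minus strand, the outermost of 7 Prss23 starts) and chr7:24462233-24462482 (plus strand).
Prss35: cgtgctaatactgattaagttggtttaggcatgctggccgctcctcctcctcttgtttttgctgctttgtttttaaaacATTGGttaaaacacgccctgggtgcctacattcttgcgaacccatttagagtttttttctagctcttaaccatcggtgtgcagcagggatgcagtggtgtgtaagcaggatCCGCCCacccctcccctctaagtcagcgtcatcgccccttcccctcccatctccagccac
Prss23: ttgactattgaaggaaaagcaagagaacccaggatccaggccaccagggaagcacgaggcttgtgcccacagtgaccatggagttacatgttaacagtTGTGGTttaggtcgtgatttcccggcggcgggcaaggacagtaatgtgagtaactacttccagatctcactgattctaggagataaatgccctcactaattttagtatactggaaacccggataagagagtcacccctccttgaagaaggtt
Plaur: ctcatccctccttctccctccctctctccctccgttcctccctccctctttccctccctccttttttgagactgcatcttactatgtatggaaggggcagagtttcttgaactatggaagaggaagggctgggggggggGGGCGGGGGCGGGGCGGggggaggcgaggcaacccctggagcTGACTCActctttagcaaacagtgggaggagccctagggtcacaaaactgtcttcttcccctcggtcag

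Prss35 held a GC box beginning 60 bases and a CCAAT box beginning 171 bases before its start. The outermost Prss23 window held neither, and had a RUNX match at 152 bases, but GC boxes stood in 4 of the 6 inner Prss23 windows. Of those windows, 3 overlap each other and hold the same 3 GC boxes. Plaur had 3 GC boxes, beginning 111, 105 and 100 bases before the start, and an AP-1 match at 69 bases. AP-1 matches also stood in 2 of the inner Prss23 windows, which overlap each other. Of the remaining genes, Serpine2 had 6 GC boxes, Htra1 had 1 GC box and 1 CCAAT box, Htra3 had 1 CCAAT box, and Serpinf1 had 3 CCAAT boxes and 2 RUNX matches. No motif of the 6 was common to all 7 genes. These matches are letters in a window and do not show binding.

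Levels were first set against each other per length of exon, so that genes of different size can be compared. In the control libraries Htra1 stood highest by its mean, with 443, 992, 1615 and 511 normalised counts per kb in replicates 1 to 4. In control replicate 1 it lay below Serpinf1 (618) and Serpine2 (588). Serpinf1 (218 to 641) and Serpine2 (302 to 588) followed with ranges that overlapped each other and that of Htra1, and each of these 2 was above the other in 2 of 4 libraries. Htra3 (164 to 281) and Prss23 (116 to 177) formed a middle step, in which Htra3 was above Prss23 in 4 of 4 libraries. Plau reached 52.9 to 115, Plaur 19.3 to 51.4 and Plat 14.7 to 23.7. Prss35 was the lowest, at 16.3, 0.293, 2.99 and 8.59 per kb. The joint thus held far more transcript of Htra1 and of both serpins than of either plasminogen activator, in both groups of libraries.

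In the libraries labelled knockout the order of the upper 6 genes by mean was the same, from Htra1 at 1184 to 3391 per kb down to Plau at 121 to 136. In knockout replicate 1, however, Serpinf1 (1377) lay above Htra1 (1184). Serpinf1 (930 to 1484) stood clear of Serpine2 (491 to 664) there, which it did not in the control libraries. The log2 ratio of Serpinf1 to Serpine2 per length was 0.07, -0.47, 0.52 and -0.07 in the control libraries and 1.05, 1.32, 0.92 and 1.26 in those labelled knockout, without overlap. Prss35 moved from last place to a place beside Plaur and Plat, at 156, 32.04, 84.9 and 65.9 per kb, within the range of Plaur (47.4 to 88.5) in 2 of 4 libraries.

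**Figure D1:**
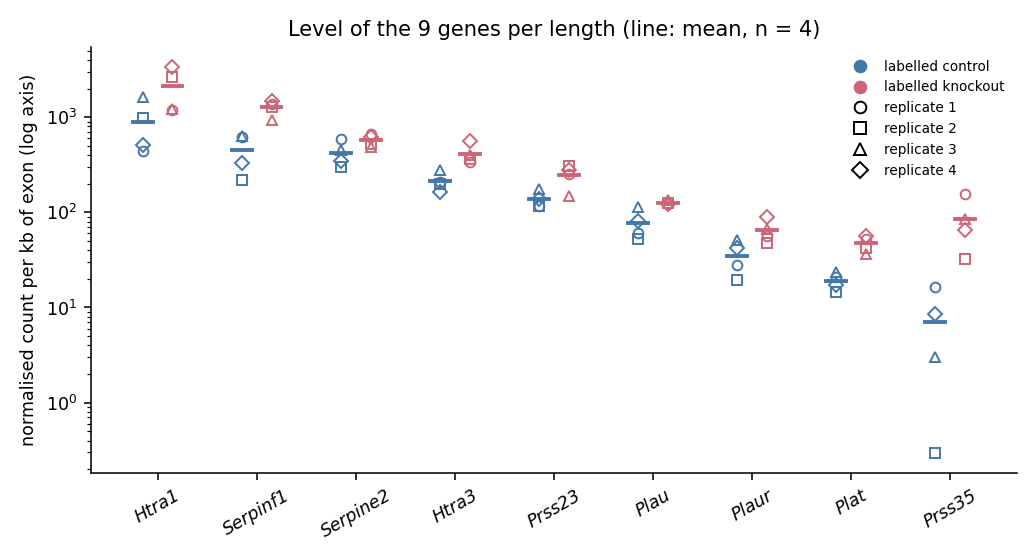
Level of the 9 genes in each library as normalised read count per kb of exon, on a log axis, with the mean of each group of 4 as a line. Htra1, Serpinf1 and Serpine2 lie highest in both groups, and Prss35 spans the widest range, from 0.293 to 156 per kb.

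Prss35 (chromosome 9, 86743649 to 86758443, plus strand of mm10, with no overlapping annotated gene) had normalised counts of 56.2, 1.01, 10.3 and 29.6 in the control libraries, against 537, 110, 293 and 227 in those labelled knockout. The groups did not overlap, and the lowest library labelled knockout was above the highest control library. The means were 24.3 ± 24.4 and 292 ± 180 (SD, n = 4 each), a ratio of 12.01. On the scale of log2 of the value plus 1, the difference was 4.16 with a standard error of 0.91. This standard error was the largest of the 9, and control replicate 2 held a single read of the gene. The difference was 3.22 without that library, 4.83 without control replicate 1, and 3.61 with a pseudocount of 5 in place of 1. The count models edgeR and DESeq2 gave 3.605 and 3.596. Within the groups the coefficient of variation was 100.5% in the control libraries and 61.7% in the libraries labelled knockout, the largest of the 9 genes in both.

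Prss23 (chromosome 7, 89507783 to 89527187), a secreted trypsin-like protease and the relative of Prss35, varied far less. Its counts were 440, 438, 667 and 515 in the control libraries and 960, 1146, 560 and 1051 in those labelled knockout. Knockout replicate 3 fell below control replicate 3, and the other 3 libraries labelled knockout lay above every control library. The difference was 0.82 on the log2 scale (SE 0.22), and 1.05 without knockout replicate 3. Prss23os overlaps the gene on the opposite strand, and no source says that reads were counted by strand, so reads of this pair cannot be told apart.

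Htra1 (chromosome 7, 130936111 to 130985660) had the highest mean count of the set after scaling for length in both groups, and a wide spread. The libraries labelled control held 1274, 2856, 4648 and 1471 normalised counts, and those labelled knockout 3409, 7621, 3543 and 9764. Control replicate 3 was above 2 of the libraries labelled knockout, so the groups overlapped. On the log2 scale the groups differed by 1.29 (SE 0.46). Without control replicate 3 it was 1.65, and without knockout replicate 4 it was 1.02. Fgfr2 overlaps the span of Htra1 on the opposite strand in the annotation, with no shared exon bases.

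Htra3 (chromosome 5, 35652023 to 35679782) held 931, 891, 1245 and 730 normalised counts in the control libraries and 1494, 1600, 1793 and 2468 in those labelled knockout. The groups did not overlap, and the difference was 0.95 with a standard error of 0.19. The 2 HtrA genes varied differently within the groups. Htra1 had a coefficient of variation of 60.8% and 51.6% in the control and knockout groups, and Htra3 of 22.7% and 23.8%. The log2 ratio of Htra1 to Htra3 per length ran from 1.08 to 2.53 in the control libraries and from 1.61 to 2.88 in the others, with overlap.

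Plau, the urokinase gene (chromosome 14, 20836660 to 20843385), had counts of 145, 125, 271 and 191 in the control libraries and 287, 298, 321 and 291 in the libraries labelled knockout. The groups were separate, but the gap was narrow, between 271 in control replicate 3 and 287 in knockout replicate 1. The libraries labelled knockout were close to each other, with a coefficient of variation of 5.07%, against 35.4% in the control libraries. The log2 difference of 0.77 (SE 0.21) was 0.98 without control replicate 3.

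Plat, the gene of tissue plasminogen activator (chromosome 8, 22757727 to 22782844), held 130, 91.9, 148 and 107 normalised counts in the control libraries. The libraries labelled knockout held 331, 263, 230 and 356, each above every control library. Its log2 difference of 1.30 had a standard error of 0.19 and moved only between 1.19 and 1.41 when any 1 library was left out. The log2 ratio of Plat to Plau per length averaged -1.98 ± 0.34 in the control libraries and -1.44 ± 0.36 in those labelled knockout (SD, n = 4), and the groups overlapped.

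Plaur, which encodes the urokinase receptor (chromosome 7, 24462484 to 24475968), had counts of 72.5, 50.5, 135 and 111 in the control libraries and 147, 124, 176 and 232 in those labelled knockout. Knockout replicate 2 lay below control replicate 3, so the groups overlapped. The log2 difference of 0.93 (SE 0.31) was 1.15 without control replicate 3. The log2 ratio of Plau to its receptor per length was 1.17 ± 0.22 in the control libraries and 1.001 ± 0.39 in the others (SD, n = 4), with overlap.

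Serpine2 (chromosome 1, 79794197 to 79861180) encodes protease nexin-1, an inhibitor of thrombin, urokinase and tissue plasminogen activator. Its counts were 4875, 2501, 3708 and 2840 in the control libraries and 5506, 4290, 4068 and 5149 in the libraries labelled knockout. The groups overlapped, with control replicate 1 higher than knockout replicates 2 and 3. The log2 difference of 0.49 had a standard error of 0.20 and was the smallest of the 9. It was 0.66 without control replicate 1 and 0.34 without control replicate 2.

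Serpinf1 (chromosome 11, 75409769 to 75422701), whose product is also known for limiting blood vessel growth and for its part in bone mineralisation, had counts of 1457, 515, 1511 and 769 in the control libraries. In the libraries labelled knockout it had 3248, 3052, 2194 and 3500, with no overlap. The log2 difference was 1.61 (SE 0.32), second in size to that of Prss35.

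**Figure D2:**
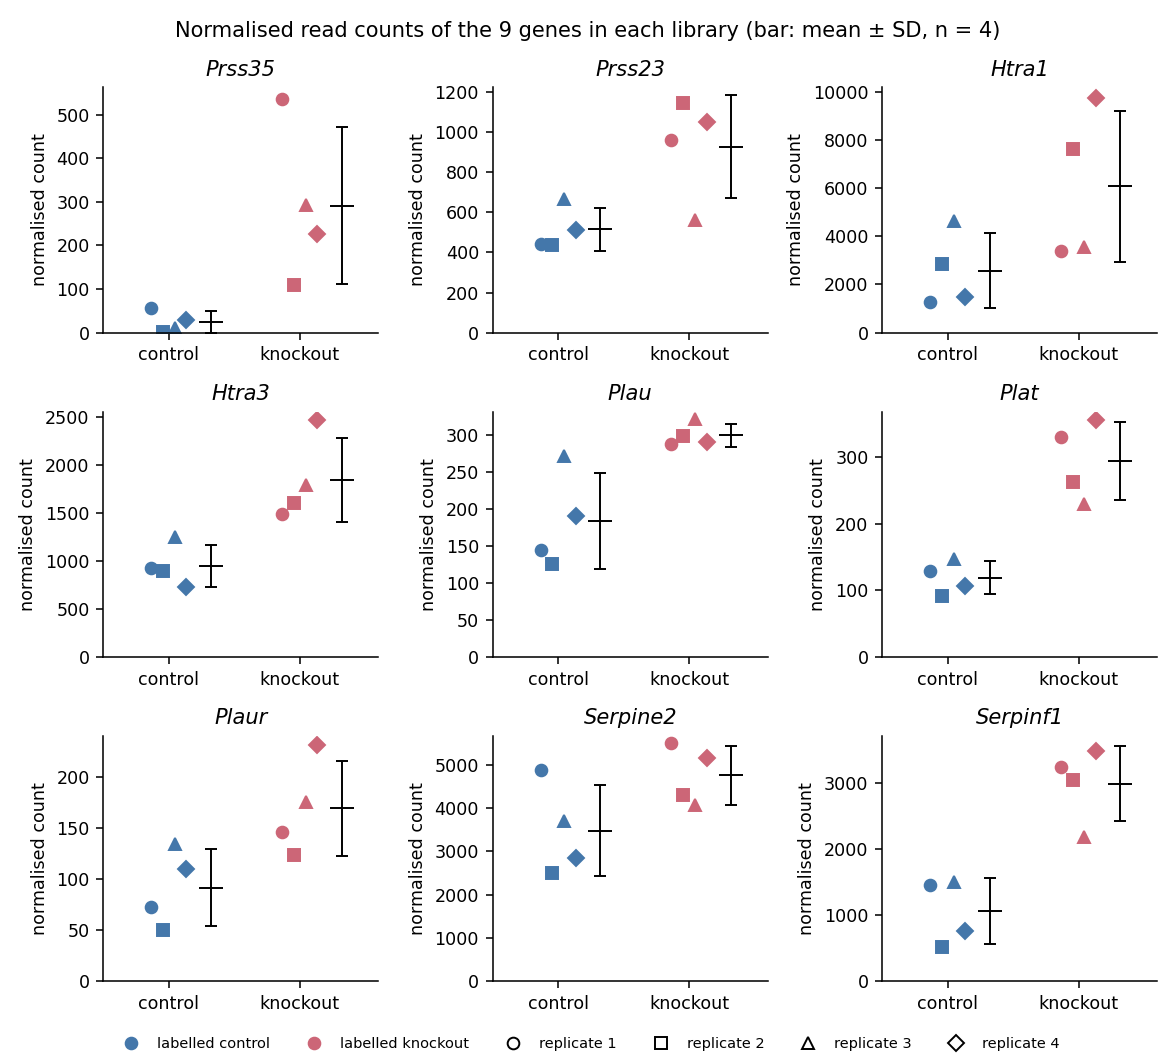
Normalised read count of each of the 9 genes in each library, with the mean and SD of the 4 libraries per group beside the points. The groups are separate for Prss35, Htra3, Plau, Plat and Serpinf1 and overlap for Prss23, Htra1, Plaur and Serpine2.

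Set side by side, the 9 log2 differences ran from 0.49 to 4.16 with a median of 0.95, while the median over all genes tested was 0.00 and the 95th percentile was 1.18. The groups were separate, with the libraries labelled knockout higher, for 5 of the 9 genes, against 11.7% of all genes tested, and 13.4% of all genes tested were separate with those libraries lower. The fit across all genes (limma on log2 values, Benjamini-Hochberg adjusted p under 0.05) called 23.2% of the genes tested, that is, 11.6% as higher and 11.6% as lower. When the libraries were scaled without muscle and blood genes, the share of higher calls was 77.5% against 50.04%. On the values as deposited, the fit called 6 of the 9, all higher, namely Prss35, Prss23, Htra3, Plau, Plat and Serpinf1. Since these genes were picked with this contrast in view, the counts describe the set and carry no further weight. Prss35, Htra3, Plat and Serpinf1 were called whichever of the 8 libraries was left out. Prss23 was called in 2 of these fits, those without control replicate 3 or knockout replicate 3, and Plau in 1, that without control replicate 3. With the mean log2 level of the skeletal muscle markers as a covariate none of the 9 was called, and the differences were 2.58 ± 2.32 (SE) for Prss35 and between -0.10 and 0.64 for the others. In that fit 83.7% of the variance of the muscle level lay between the groups, so the muscle level and the group can hardly be told apart.

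**Figure D3:**
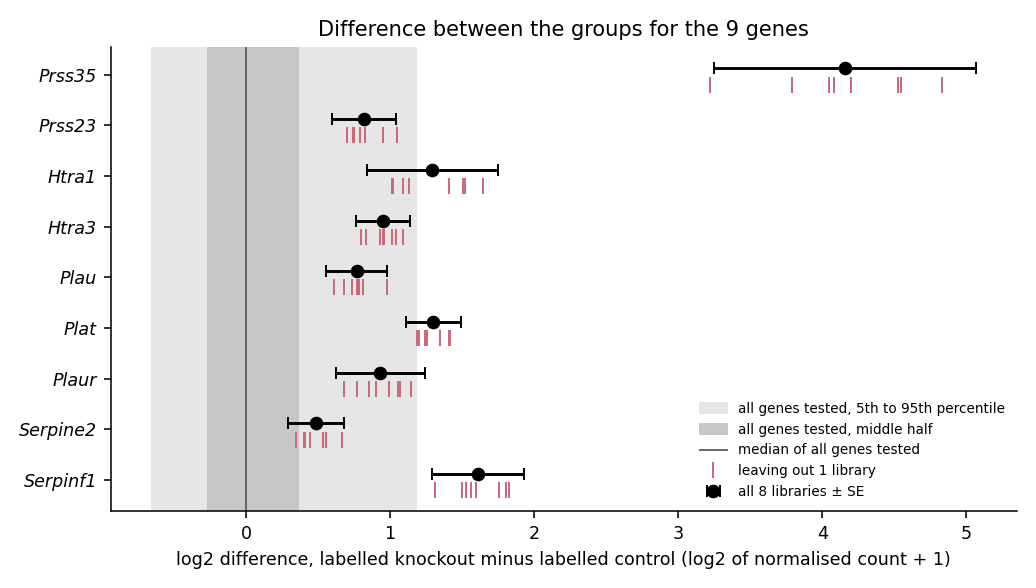
Log2 difference between the groups for the 9 genes with its standard error (black), and the 8 values from fits that each left out 1 library (red ticks). Grey bands show the spread over all 14949 genes tested, whose 5th and 95th percentiles are -0.65 and 1.18; Prss35, at 4.16, lies far to the right of the other 8.

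The libraries did not contribute evenly. Of the control libraries, replicate 3 was the highest for 7 of the 9 genes, those other than Prss35 and Serpine2, and replicate 2 was the lowest for 7, those other than Htra1 and Htra3. Control replicate 3 is the library whose Loxl2 count lay among those labelled knockout, and its summed fibroblast markers, at 196124, were the highest of the control group. Without it, the differences of 8 of the 9 genes were larger, and that of Prss35 was 4.05. Among the libraries labelled knockout, replicate 4 was the highest for 5 genes and the lowest for none. The same library had the lowest muscle marker sum and the highest fibroblast marker sum of the 8. Replicate 3 was the lowest for 4 genes. The part of tissue composition in this ordering was not tested.

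Prss35 followed this ordering only in that control replicate 2 was the lowest of its group. Its control libraries ran from replicate 1 down through replicates 4 and 3 to replicate 2, and the libraries labelled knockout from replicate 1 down through replicates 3 and 4 to replicate 2. The summed counts of 8 osteoclast markers were also highest in replicate 1 and lowest in replicate 2 of either group, at 14065, 1868, 2535 and 2013 in the control libraries and 39329, 10270, 17640 and 29061 in those labelled knockout. The osteoblast and osteocyte markers were likewise highest in replicate 1 and lowest in replicate 2 of either group. Their sums were 7389, 1083, 2684 and 1484 in the control libraries and 12436, 6080, 6963 and 7281 in the others. In both lists, which are among the 10 marker lists, replicates 3 and 4 stood in the opposite order to Prss35 in either group. No other list of the 10 was highest in replicate 1 and lowest in replicate 2 of both groups. The macrophage markers were lowest in replicate 2 of either group (1463 and 5168) but highest in replicate 4 (3340 and 6955). The part of these cells in the order of Prss35 was not tested. Over the 8 libraries, genes with log2 values among the most like those of Prss35, of 11621 genes with a mean of at least 50, were Spi1 (Pearson r = 0.993), BC017158 (0.987), Inpp5d (0.983) and Mertk (0.982). These r values take in the difference between the groups, which these genes share. Control replicate 2, which held 1 read of Prss35, was the lowest of the 8 libraries for Prss35 and for each of these genes. With each value taken as a deviation from its group mean, those among the highest were Spi1 (0.988), B3gntl1 (0.974), Dennd1c (0.965) and BC017158 (0.964), over the same 8 libraries. These r values were picked as the highest of 11621 genes. The Prss35 deviations were largest in control replicate 2, which held 1 read (-2.81), and control replicate 1 (2.02). Spi1 encodes the transcription factor PU.1. The counts of Spi1 were 220, 65.6, 114 and 160 in the control libraries and 583, 313, 437 and 472 in the others, in the order of their replicates. Its log2 difference was 1.78 (SE 0.33), given without a test because the gene was picked for its likeness to Prss35. B3gntl1 had a log2 difference of -0.05, so that only its deviations within the groups resembled those of Prss35.

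The other 8 genes of the set were less like Prss35. Their deviations from the group means had r values with it of 0.70 for Serpine2, 0.56 for Serpinf1, 0.44 for Plat, 0.41 for Plaur and 0.21 for Plau. Those of Prss23 and Htra3 were -0.11 and -0.16. That of Htra1 was -0.65, since Htra1 was lowest in replicate 1 of either group, where Prss35 was highest. These values rest on 8 libraries that differ in tissue content, 1 of them with a single read of Prss35, and are given as a description.

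**Figure D4:**
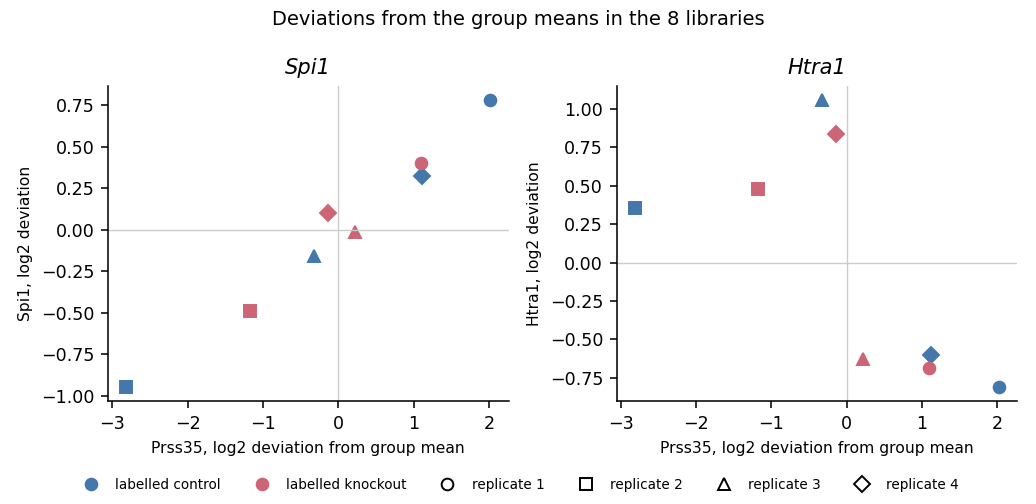
Log2 deviations of Spi1 and Htra1 from their group means against those of Prss35, 1 point per library. Spi1 (r = 0.988) rises with Prss35 in both groups, and Htra1 runs the other way (r = -0.65). The leftmost point of each panel is control replicate 2, with 1 read of Prss35.

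The rest of the plasminogen system was examined with a list of 18 other genes, of which 14 had a row and 11 could be tested. Of these, 4 rose, 0 fell and 7 were not called by limma. The median log2 difference was 0.21. An unadjusted p under 0.05 was found for 5 of the 11 and for 38.4% of all genes tested, a share against which the same count in each list below is to be read. The calls in each list stand beside 11.6% of all genes tested called higher and 11.6% called lower. Plg, the plasminogen gene, and Serpinf2, its plasmin inhibitor, matched no row. Among the receptors and other plasminogen-binding proteins of the list that were not called, Vldlr had a difference of -0.39, Plgrkt of 0.21 and Eno1 of -0.03; these 3 are named after their values were seen. Lrp1, the endocytic receptor that clears complexes of proteases with serpins, rose from 3647 ± 999 to 8838 ± 1797 (SD, n = 4; log2 difference 1.29, SE 0.20, limma adjusted p = 0.00456). Mrc2, a collagen receptor that associates with the urokinase receptor, rose by 1.18 (SE 0.26, limma adjusted p = 0.0135). Anxa2 and S100a10, whose proteins form a complex that binds plasminogen and tissue plasminogen activator, rose by 1.10 (SE 0.19, limma adjusted p = 0.00656) and 0.92 (SE 0.22, limma adjusted p = 0.0168). In all 4 the groups were separate, and the call of S100a10 was lost without knockout replicate 4 (adjusted p = 0.0536). Vtn, the gene of the matrix protein vitronectin, which binds the urokinase receptor, was not called (-0.30, limma adjusted p = 0.395).

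Of 37 other serine proteases listed, not all of which act outside the cell, 22 could be tested, 5 rose and 0 fell. The median log2 difference was 0.44, and 7 had an unadjusted p under 0.05. Fap, the fibroblast activation protein gene, rose by 1.58 (SE 0.36, limma adjusted p = 0.0149). Htra4, a further HtrA gene, had counts of 451, 495, 606 and 864 in the control libraries and 1472, 1032, 932 and 2166 in the others, which did not overlap, and rose by 1.18 (SE 0.28, limma adjusted p = 0.0164). Htra2, whose product is mitochondrial and which is named here after its value was seen, was not called (0.12). C1ra and C1s1, which encode the proteases of the first complement component, rose by 1.09 and 0.89 (limma adjusted p = 0.0192 and 0.0268). The call of C1ra was lost without control replicate 2 or 4 or knockout replicate 4 (adjusted p of 0.0531, 0.0517 and 0.0601). That of C1s1 was lost without the same libraries or knockout replicates 1 or 2 (0.0615 to 0.0764). Masp1, named here after its values were seen, was the remaining one, with a difference of 0.995 (limma adjusted p = 0.0299) that was not called without knockout replicates 1, 2 or 4 (0.0562 to 0.0873). Without knockout replicate 4 only 2 of the list were called. The summed fibroblast and macrophage markers were higher in the libraries labelled knockout without overlap, as given above, and their part was not tested.

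Among 28 other serpins with a row, 15 could be tested, 2 rose and 0 fell. For these and for the inhibitors below, the shares over all genes tested were 11.6% called higher and 11.6% called lower. The median log2 difference was 0.38, and 4 had an unadjusted p under 0.05. Serpinh1, which encodes a collagen chaperone of the endoplasmic reticulum and not a protease inhibitor, rose from 2476 ± 899 to 6056 ± 949 (SD, n = 4; log2 difference 1.34, SE 0.22, limma adjusted p = 0.00556). Serping1, the gene of the inhibitor of C1r and C1s, rose by 0.96 (SE 0.26, limma adjusted p = 0.0280), a call that held only without control replicate 3 or knockout replicate 3 when 1 library at a time was left out (adjusted p of 0.0562 to 0.0795 in the others). Serpinb1a, an inhibitor of neutrophil elastase, was not called (0.45, limma adjusted p = 0.114), except without control replicate 1 (adjusted p = 0.0352) or with the scaling that leaves out muscle and blood genes. Inhibitors other than serpins gave 2 calls among 13 genes tested of 27 listed, both higher, with a median of 0.48, and 5 had an unadjusted p under 0.05. They were Reck, a membrane-bound inhibitor of metalloproteinases (1.12, limma adjusted p = 0.0411), and Wfdc17, which holds a whey acidic protein domain (1.28, limma adjusted p = 0.0473). No gene of that list was called when any 1 of control replicates 2 and 4 or knockout replicates 1, 2 and 4 was left out, 1 was without control replicate 1, and 4 were without control replicate 3 or knockout replicate 3. Tfpi2 (1.41, limma adjusted p = 0.0726) and Pi15 (1.42, limma adjusted p = 0.0893) were not called, although Tfpi2 was without control replicate 3 (adjusted p = 0.0471), and both were without knockout replicate 3 (0.0190 and 0.0455). DESeq2 called both.

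The coagulation list had 12 tested genes of 21 listed, of which 3 rose and 0 fell, with a median of 0.41, and 6 had an unadjusted p under 0.05. Gas6 and Pros1, the vitamin K-dependent ligands of the receptor Mertk, rose by 0.56 (SE 0.11, limma adjusted p = 0.00867) and 0.87 (SE 0.19, limma adjusted p = 0.0128). Mertk itself, which stood on the macrophage list and among the genes most like Prss35, had a log2 difference of 1.12 (SE 0.22), given without a test for the same reason. F3, the tissue factor gene that starts clotting, had counts of 35.7, 13.1, 39.3 and 48.2 in the control libraries and 105, 79.5, 70.7 and 87.1 in the others, and rose by 1.43 (SE 0.36, limma adjusted p = 0.0214). Its call was lost without knockout replicate 1 or 4 (adjusted p of 0.0558 and 0.0592). F7, its partner, had 41.3 counts at most, and was not called (1.81, limma adjusted p = 0.0527), except without control replicate 1 (adjusted p = 0.0493), with a pseudocount of 5, with the scaling that leaves out muscle and blood genes, or by DESeq2.

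Serine proteases stored in the granules of leukocytes did not share a direction. Of 7 tested among 23 listed, 1 rose and 1 fell, with a median of -0.29, and 5 had an unadjusted p under 0.05. Mcpt4, a mast cell chymase, rose from 12.7 ± 7.46 to 38.0 ± 7.73 (log2 difference 1.72, limma adjusted p = 0.0293), and Gzmm, which encodes granzyme M, fell from 128 ± 10.6 to 82.9 ± 13.4 (-0.63, limma adjusted p = 0.0198). The call of Mcpt4 was lost without control replicate 2 or knockout replicates 1, 2 or 4 (adjusted p of 0.0583 to 0.0759), and that of Gzmm without control replicate 2 or knockout replicate 4 (0.0545 and 0.0584). Tpsb2, a mast cell tryptase (1.42, limma adjusted p = 0.0784), and Elane, neutrophil elastase (-1.77, limma adjusted p = 0.129), were not called, though Tpsb2 was without control replicate 1 (adjusted p = 0.0426). The summed mast cell markers were 27.3 to 98.4 in the control libraries and 51.1 to 115 in the others, and the neutrophil markers 1416 to 5660 and 1141 to 2794. Both lists overlapped between the groups.

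**Figure D5:**
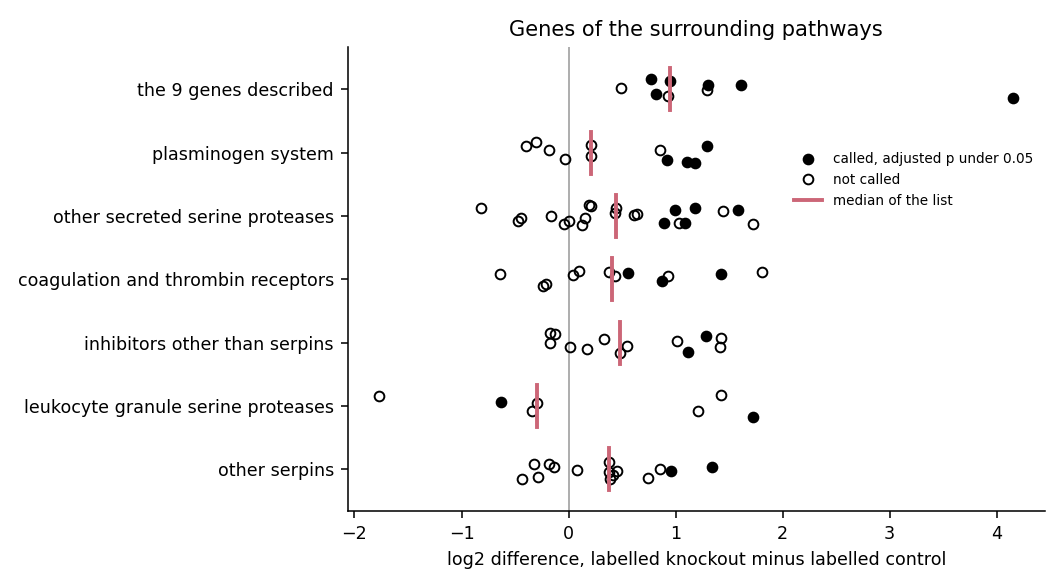
Log2 difference of each tested gene of the 9 genes described and of 6 surrounding lists, with called genes filled and the median of each list as a red bar. The medians of the lists run from -0.29 for the leukocyte granule proteases to 0.48 for the inhibitors other than serpins, and the 9 genes described, which were picked with this contrast known, have a median of 0.95.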

How the data were processed

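Poly-A RNA from mouse knee joints was sequenced in 4 libraries per group. Per the submitters' processing notes and the series text, the authors aligned reads to mm10 with HISAT2, counted them per gene with featureCounts and normalised with DESeq2. The versions, annotation, strand setting and filter are not given in the sources used here. The deposited table holds, as a normalised signal, read counts divided by a size factor per library: in each column 100% of the values were whole multiples (within 0.05) of the smallest one. That step was 1.01 and 0.997 in control replicate 2 and knockout replicate 1, too close to 1 to be informative alone. Columns without a matching sample numbered 0.

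Genes with values of at least 10 in at least 4 libraries were fitted on the scale of log2(value + 1) with limma 3.58.1 (lmFit, eBayes with trend), with the group as the only term, and p-values were adjusted across all genes tested by the Benjamini-Hochberg method. A pseudocount makes log2 differences of low genes smaller, but that of Prss35 was larger than with the count models edgeR and DESeq2. Single values were compared by exact two-sided permutation over 70 assignments of the libraries. Alternatives were 2 other pseudocounts, 2 other filters, 3 other scalings, edgeR 4.0.16 and DESeq2 1.42.0 on the recovered reads, a block, a muscle covariate and leaving out each library. The tests were checked on simulated counts. Counts per kb use the union of exons in GENCODE M21 (GRCm38), in which 99.2% of the rows had a matching name.

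The 9 genes, the lists and the tests were chosen with earlier results of these data known. Named were the 9 genes, Loxl2, 8 fixed genes of the plasminogen system, up to 4 genes of smallest p per list, and the 5 genes most like Prss35 by each of 2 measures; 2 of these genes are not reported here.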

Additional observations from a re-analysis of the deposited data

Results flagged for a closer look

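In 3 of 84 groups of 4 libraries examined for the named genes, a single library stood far from the other 3, by a gap above Dixon's 95% critical value for its share of the whole range of the group. Chance gives such a gap in about 1 in 20 groups. The count of Loxl2 in control replicate 3 was 0.921 of the range above the next control library. Elane in control replicate 1, with 175 normalised counts against 34.6 to 46.0 in the other control libraries, had a gap of 0.919 of the range. F7 in knockout replicate 3, with 41.3 counts against 17.6 to 20.5, had a gap of 0.877. None of the 9 genes met this criterion in either group.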

How the results depend on the processing

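The log2 differences of the 9 genes kept their sign in all 8 fits that left out a library and in 10 other settings, and turned in 1. With the muscle marker level as a covariate they were -0.020 (SE 0.49) for Prss23, -0.085 (SE 0.71) for Plaur and -0.098 (SE 0.46) for Serpine2. Those of Htra4 (-0.16, SE 0.53), C1ra (-0.16, SE 0.53), Reck (-0.15, SE 0.76), Wfdc17 (-0.67, SE 0.79) and Serping1 (-0.025, SE 0.58) turned as well. So did those of Pi15 (-0.79, SE 1.20) and Tfpi2 (-0.47, SE 1.15), which had not been called. Each of these differences was smaller than its standard error in that fit, so its sign is not settled. That fit called 0 genes in all, 0 of the 9 and 0 of each of the 6 lists, and 602 genes had an unadjusted p under 0.05. The replicate block called 2018 genes against 3461, and 2 of the other serine proteases, 0 of the inhibitors other than serpins and 1 of the other serpins; of the 9 genes it called 6, with Plaur in place of Prss23. The labels state no pairing by replicate number, and deviations from the group means did not follow the numbers (r between -0.23 and 0.21). Leaving out a library gave 1751 (without knockout replicate 4) to 3841 called genes over the table, 1887 without control replicate 2 and 2194 without control replicate 4. It gave 4 to 8 of the 9 genes, 2 to 7 of the other serine proteases, 0 to 4 of the inhibitors, 0 to 3 of the granule proteases and 1 to 2 of the other serpins. Quantile normalisation gave 1 call each for inhibitors and granule proteases, a filter at 50 gave 1 for granule proteases, and DESeq2 gave 4 for inhibitors. Reck, Wfdc17 and Mcpt4 lost their calls under quantile normalisation, C1ra, C1s1, Reck, Wfdc17 and Serping1 under the block, and Wfdc17 without a filter. The mean difference of Loxl2 ranged from 588 to 896 when a library was left out. With libraries scaled without muscle and blood genes, 77.5% of calls were higher against 50.04%, and the median of all genes moved to 0.15. That scaling called 2708 genes higher and 784 lower among the 14949 tested, against 1732 and 1729 on the values as deposited. Of the 9 genes, which were picked with this contrast known, it called 8. Apart from the scaling, the cause of these changes was not tested. Depth limits Prss35 in the control libraries, where control replicate 2 held 1 read.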
